A study of Mus musculus with 8 samples.

Results

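Mediator and the nuclear RNA polymerases were represented by 44 of the 11251 regions of the table analysed here. The members were the regions whose nearest gene has a symbol that begins with Med and a digit, or with Polr1, Polr2 or Polr3. They belonged to 42 genes: 26 regions at 24 Mediator genes, 12 regions at 12 Polr2 genes, 6 regions at 6 Polr3 genes and 0 regions with a Polr1 symbol. The table holds chromatin immunoprecipitation sequencing of H3K9ac, acetylation of histone H3 at lysine 9, which marks the starts of active genes. Epithelial cells came from the end of the small intestine, the terminal ileum, of C57Bl/6 mice with the wild-type genotype. The butyrate group had received 150 mM butyrate for 7 days, and the other group had received vehicle. Butyrate is a short-chain fatty acid that gut bacteria make, and it inhibits histone deacetylases. Each group had 3 H3K9ac libraries, and 1 input library per treatment stayed out of the values used here.

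Mediator is a large complex that carries signals from DNA-bound transcription factors to RNA polymerase II at promoters. Its head and middle modules contact the polymerase, its tail receives many of the activators, and a separable kinase module with a cyclin-dependent kinase regulates the contact between Mediator and polymerase. RNA polymerase I makes the large ribosomal RNA precursor, polymerase II makes messenger RNA, and polymerase III makes transfer RNA, 5S ribosomal RNA and other small RNAs. Some small subunits are shared by all 3 polymerases, and others by polymerases I and III. These genes are used by every cell, including the absorptive and secretory cells of the ileal epithelium.

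The values are RPKM, reads scaled by the length of the region and by an effective library size, as the authors deposited them. The libraries held 1554268, 1255251 and 1596958 reads in regions with butyrate (libraries S4, S5 and S6), and 1828591, 1261630 and 1449476 with vehicle (S1, S2 and S3). Member regions held a mean of 14.7 to 396 reads per library, with a median of 83.1. All 10 epithelial marker genes checked had a region, with a summed level of 51.1 to 55.8 RPKM in butyrate libraries and 54.3 to 57.7 RPKM in vehicle libraries. Of 10 leukocyte markers 1 had a region, at Ptprc, with 0.558 to 1.35 RPKM in butyrate libraries and 0.672 to 0.930 RPKM in vehicle libraries. No region was found for 8 stromal and smooth muscle, 5 endothelial and 5 glial and neuronal markers. The labels name no batch and leave unsaid whether the libraries of a group were from different mice, so p-values here reflect only how far these libraries spread, which may be technical. The deposited scaling brings the libraries to nearly equal sums, so each difference is relative to the other regions. In a bulk sample, fewer cells with the mark and less of the mark per cell cannot be told apart.

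The promoter sequences below show where the members with the clearest differences and the highest levels start. RefSeq promoters (GRCm38.p6) were found for 35 of the 42 genes, and the 250 bases before the start are printed, 5′ to 3′ on the gene's strand. Med23, Med24, Med30, Polr2d, Polr2g, Polr2k and Polr3a were not matched. Capitals mark 5 short motifs searched on both strands: the TATA box as TATAAA, the CCAAT box as CCAAT, the GC box as GGGCGG, the ETS core as CCGGAAG and the E-box as CACGTG. Matches of the GC box can overlap each other, and matches of different motifs overlapped in 1 of the 35 promoters. Med4 and Med27 had the smallest p among members higher with butyrate, Med13l the smallest p among lower members with a matched promoter, and Polr2m and Med13 the highest levels. Polr2a encodes the largest subunit of RNA polymerase II.
Med4, chr14:73509799-73510048, plus strand: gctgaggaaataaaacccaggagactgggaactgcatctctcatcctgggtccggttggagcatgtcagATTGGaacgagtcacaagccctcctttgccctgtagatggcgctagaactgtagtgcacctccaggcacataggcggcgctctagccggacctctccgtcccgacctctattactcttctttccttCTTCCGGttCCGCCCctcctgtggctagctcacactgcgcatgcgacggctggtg
Med27, chr2:29346560-29346809, plus strand: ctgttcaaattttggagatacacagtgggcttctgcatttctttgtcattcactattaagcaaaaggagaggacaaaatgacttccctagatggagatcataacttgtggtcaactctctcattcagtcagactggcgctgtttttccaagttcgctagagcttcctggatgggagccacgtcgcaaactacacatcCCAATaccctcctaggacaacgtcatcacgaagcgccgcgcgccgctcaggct
Med13l, chr5:118560469-118560718, plus strand: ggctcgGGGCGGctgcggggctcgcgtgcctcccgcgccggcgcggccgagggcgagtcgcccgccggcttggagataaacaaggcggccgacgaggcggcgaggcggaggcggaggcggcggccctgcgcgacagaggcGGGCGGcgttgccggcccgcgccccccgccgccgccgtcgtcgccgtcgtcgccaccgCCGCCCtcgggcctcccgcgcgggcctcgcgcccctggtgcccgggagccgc
Med13, chr11:86357597-86357846, minus strand: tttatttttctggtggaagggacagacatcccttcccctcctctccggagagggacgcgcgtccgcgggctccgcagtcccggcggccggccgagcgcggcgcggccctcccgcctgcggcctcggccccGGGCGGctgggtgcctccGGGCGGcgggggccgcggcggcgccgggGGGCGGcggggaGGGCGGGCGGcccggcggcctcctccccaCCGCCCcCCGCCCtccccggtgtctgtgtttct
Polr2m, chr9:71485984-71486233, minus strand: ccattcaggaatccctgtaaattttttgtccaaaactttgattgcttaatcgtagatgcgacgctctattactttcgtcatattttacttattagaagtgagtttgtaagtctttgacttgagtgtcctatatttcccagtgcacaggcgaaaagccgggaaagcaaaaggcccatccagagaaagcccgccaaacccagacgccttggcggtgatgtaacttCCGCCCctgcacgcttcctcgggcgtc
Polr2a, chr11:69758634-69758883, minus strand: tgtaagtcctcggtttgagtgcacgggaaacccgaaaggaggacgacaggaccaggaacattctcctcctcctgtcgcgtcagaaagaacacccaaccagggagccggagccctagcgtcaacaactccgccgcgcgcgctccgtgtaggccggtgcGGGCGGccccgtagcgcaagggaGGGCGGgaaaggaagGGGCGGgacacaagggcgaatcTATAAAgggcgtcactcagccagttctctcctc

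The promoters ranged from CpG-poor to CpG-dense. The Med13l window held 51 CpG dinucleotides at 84.0% G and C, and that of Med13 held 37 at 80.0%, with 7 GC boxes. The windows of Med4 and Polr2m held 13 CpG each, at 57.6% and 46.8% G and C, and that of Med27 held 11 at 48.4%. The Polr2a window had a TATA box whose first base lies 33 bases before the start, and 3 GC boxes before it. The Med4 window had a CCAAT box 181, an ETS core 55 and a GC box 46 bases before the start.

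Over the 35 matched promoters the median was 59.6% G and C and 18 CpG, beside 62.0% and 18 CpG in the 8465 other RefSeq promoters whose start lay in a region of the table. The 24351 promoters with a start in no region had 49.6% and 4 CpG. A GC box was found in 22 members (62.9%), against 62.3% of the other promoters in a region and 22.4% of those in none. The ETS core was found in 8 members (22.9%, against 16.2% and 3.64%), the CCAAT box in 12 (34.3%, against 31.8% and 34.6%), the TATA box in 4 (11.4%, against 5.74% and 14.7%) and the E-box in 2 (5.71%, against 8.56% and 5.14%). In base composition and in GC boxes the members thus lay near the other acetylated promoters. A match is a run of letters and not a site of binding.

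The regions sat on and just after the starts of their genes. Of the 44, 43 were centred within 5 kb of the start site that the table gives (97.7%, against 90.6% of the other regions). The centre lay downstream of the start in 40 of these 43, at a median of 417 bp. The start site was covered in 34, while 8 regions began after it: those of Med22, Med24, Med28, Polr2e, Polr2f, Polr2g, Polr3b and Polr3k. The table annotates 27 members as intron, 13 as promoter, 2 as 5′ UTR, 1 as exon and 1 as intergenic. In most of them the intron is the first. Med24 and Med27 each had 2 regions, the further one being an intergenic one centred 1310 bp upstream of Med24, a tail gene, and an intronic one centred 9088 bp into Med27.

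**Figure D1:**
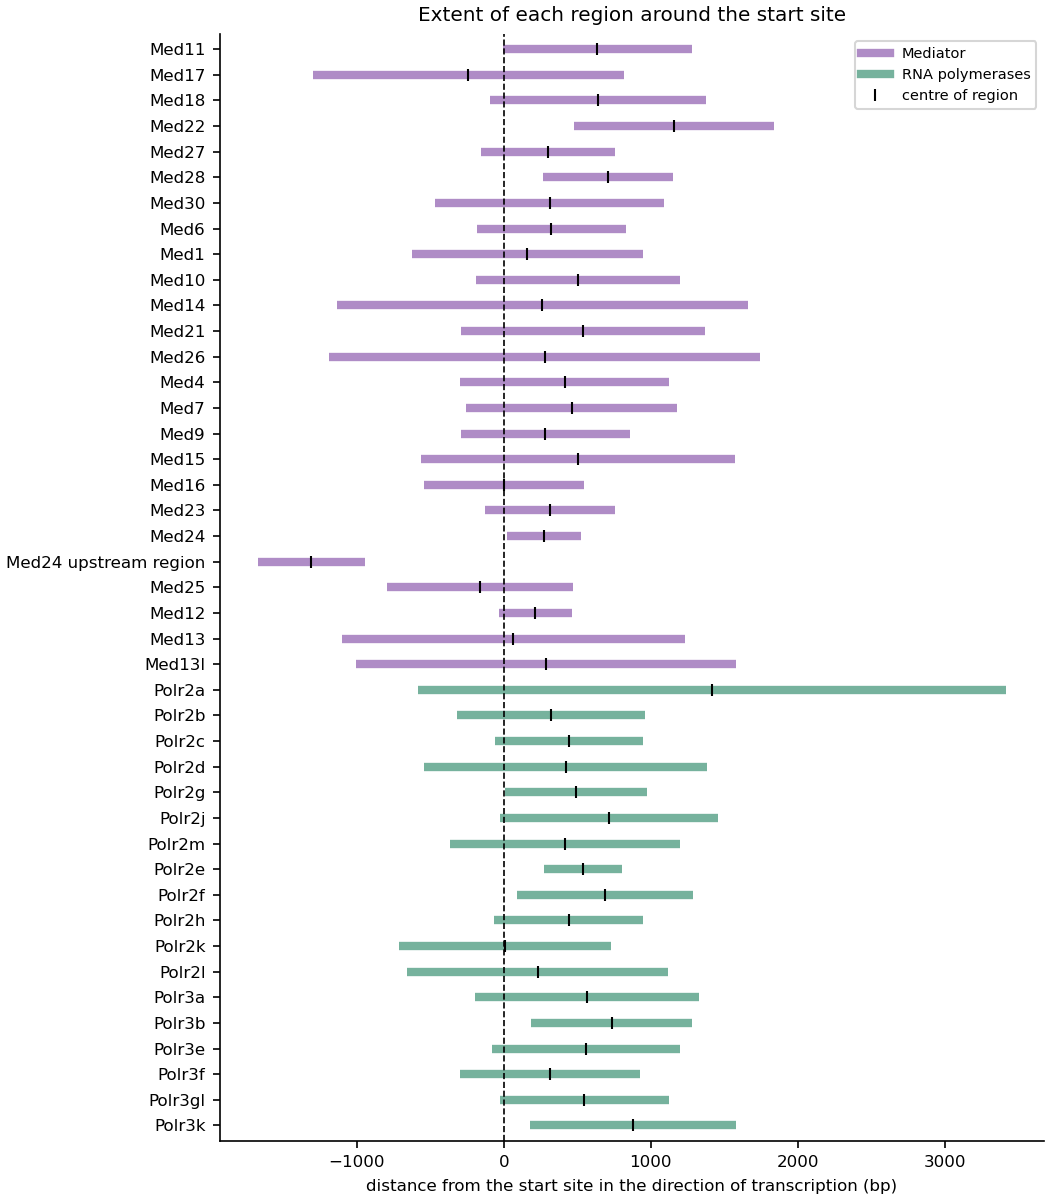
Extent of each member region within 5 kb of its start site, in bp along the direction of transcription, with 0 at the start site; bars are regions and ticks their centres. Most bars cross 0 and reach further downstream than upstream, and the Polr2a bar of 4005 bp is the longest.

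The mean over the 6 libraries ran from 0.946 RPKM at the region upstream of Med24 to 9.20 RPKM at Polr2m. The median member had 3.04 RPKM, against 3.09 RPKM in the other regions of the table and 3.11 RPKM in the other regions annotated as promoters. The Mediator regions had a median of 3.45 RPKM and the polymerase regions one of 2.36 RPKM. This order was seen in every library, with medians of 3.10 to 3.74 RPKM for Mediator and 2.48 to 2.51 RPKM for the polymerases in butyrate libraries, and of 3.19 to 3.45 RPKM and 2.43 to 2.58 RPKM in vehicle libraries. The median width was 1325 bp, against 1417 bp in the other regions. Members were weaker and narrower in the median than the 7722 other regions over a protein-coding start site. Those had 3.575 RPKM and 1831 bp. The comparison is uneven, because only 34 of the 44 members covered such a start. Members without one were all below the member median of 3.04 RPKM.

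**Figure D2:**
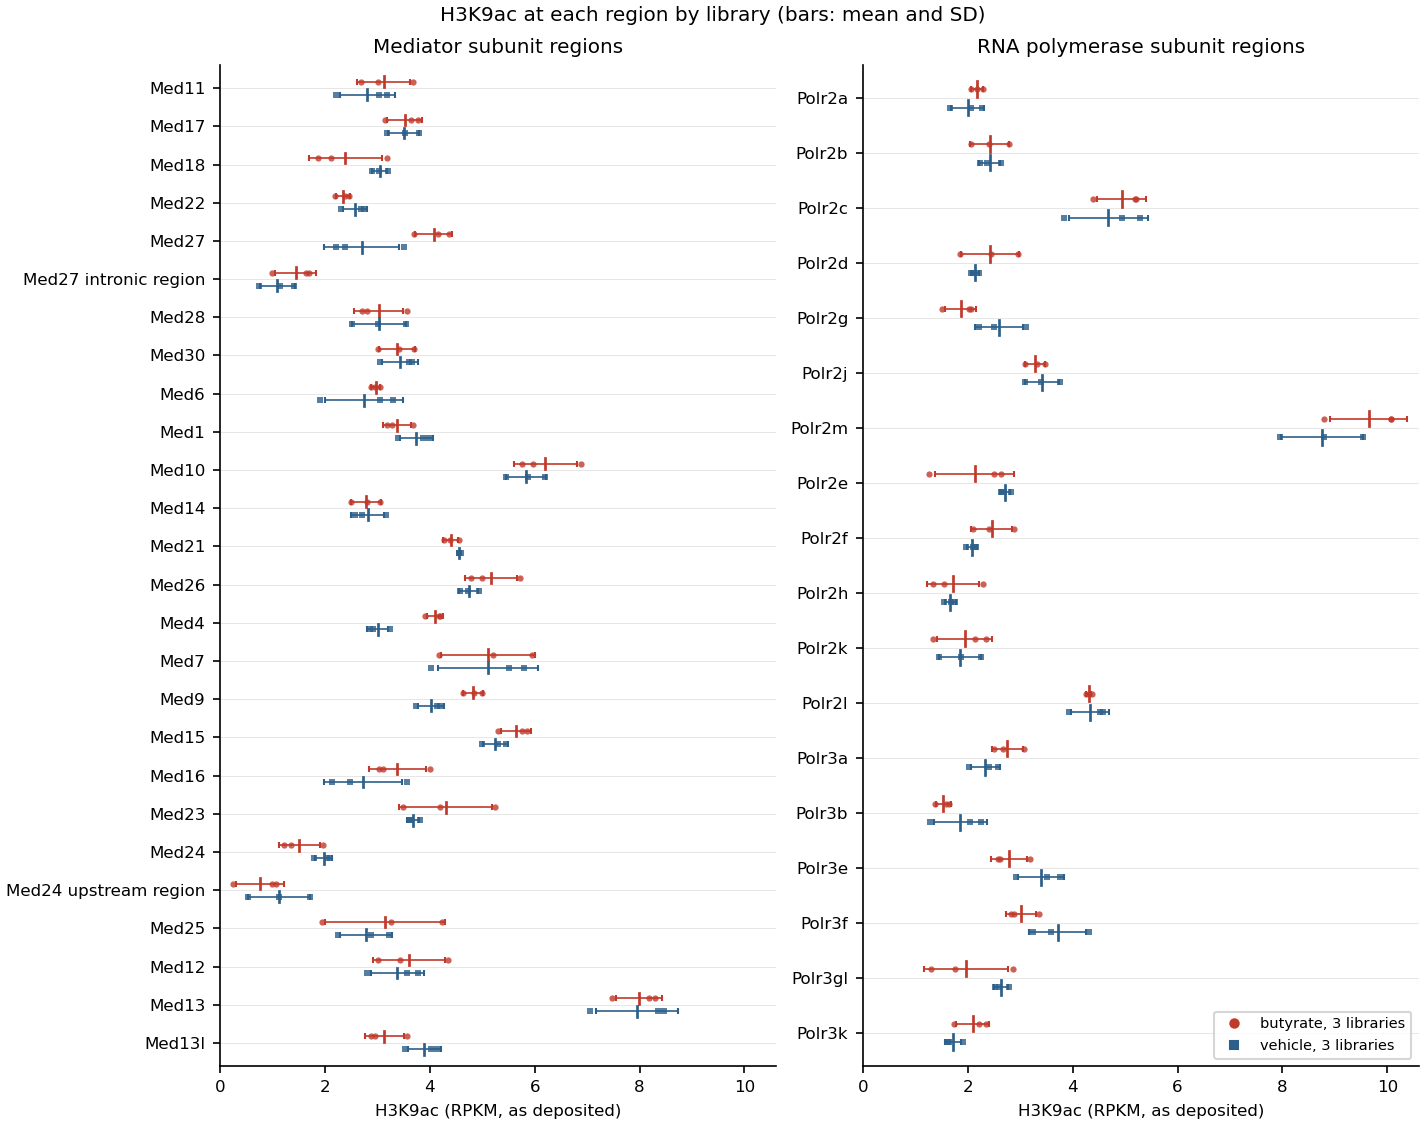
H3K9ac in RPKM at each of the 44 member regions, by library, with Mediator on the left and the polymerases on the right; points are libraries, vertical ticks are means and horizontal bars SD (n = 3 per group). Polr2m and Med13 stand above the other members in both groups, and at most members the butyrate and vehicle points intermingle.

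The question of the study, whether butyrate alters histone acetylation in these cells, was asked of each member by limma on log2(RPKM + 1), fitted over all tested regions. A total of 43 members passed the filter of a mean of at least 1 RPKM, and the region upstream of Med24 did not. None of the 43 passed a Benjamini-Hochberg adjusted p of 0.05 in limma, where 0 of 10529 tested regions (0%) passed. The smallest limma adjusted p among members was 0.57. On reads recovered from the RPKM values, limma's voom called 0 members of 44, against 16 of 11251 regions (0.142%). The authors' deposited table called 0 members at its FDR of 0.1, against 28 regions (0.249%). An unadjusted limma p under 0.05 was found at 5 members (11.6%), against 7.27% of all tested regions. By voom 5 of 44 members had an unadjusted p under 0.05, where 9.49% of all 11251 regions did. Med9 (voom p 0.13) and Polr2g (voom p 0.056) were no longer among them, and Med18 (voom p 0.048) and Polr3gl (voom p 0.034) were.

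Of the 43 tested members 26 had a higher and 17 a lower mean with butyrate on this scale. The median log2 fold change was 0.02 with an SD of 0.18, against a median of 0.00 and an SD of 0.17 in the other tested regions. All butyrate libraries lay above all vehicle libraries at 3 members, where 6.11% of tested regions did so, and below them at 2 members, where 6.85% did. Together these are 11.6% of members beside 13.0% of tested regions, a share near the background. The 95% interval of the difference lay within 0.58 on the log2 scale, a 1.5-fold change, at 26 of 44 members by voom. By limma it did so at 37 of the 43, but there the bound is 1.5-fold of RPKM + 1, which is looser. The log2(RPKM + 1) scale understates fold changes, most of all in weak regions. At Med4, with a ratio of 1.36 in RPKM, the log2 fold change was 0.35 by limma and 0.45 by voom. The median half-width of the intervals was 0.27 by limma and 0.36 by voom.

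**Figure D3:**
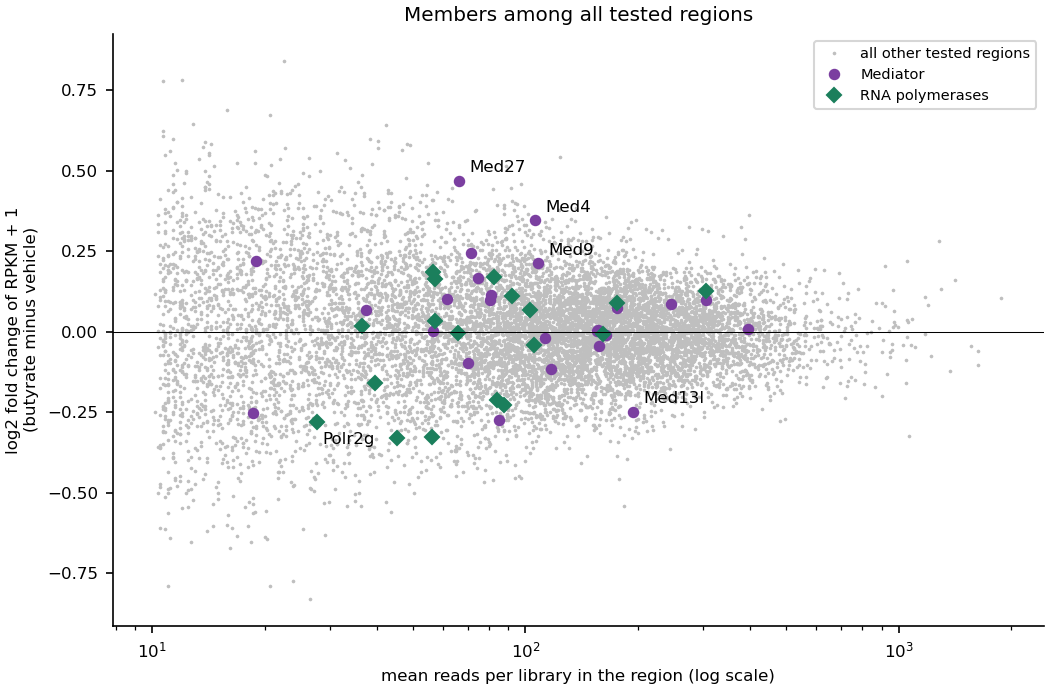
Log2 fold change of RPKM + 1 (butyrate minus vehicle) against the mean reads per library (log axis) for all tested regions in grey, Mediator members as circles and polymerase members as diamonds. Members lie within the spread of the other regions, and the 5 labelled ones had an unadjusted limma p under 0.05.

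The Mediator head, as grouped here, was measured at 9 regions of 8 genes, 6 higher and 3 lower with butyrate and none called. The labels assign no subunit to a module. Med27, grouped here with the head, had the largest log2 fold change of the 43 members tested by limma. By voom, which also took in the region upstream of Med24, that region had -0.72 on 14.7 mean reads, against 0.57 at Med27. Its region (chromosome 2, 29346655 to 29347570, mm10, first intron and start site) had 3.69, 4.15 and 4.37 RPKM in the butyrate libraries, against 3.52, 2.20 and 2.38 RPKM in the vehicle libraries. Every butyrate library was above every vehicle library, but S1 of the vehicle group lay close to S4 of the butyrate group. The means were 4.07 ± 0.34 RPKM with butyrate and 2.70 ± 0.71 RPKM with vehicle (SD, n = 3 each), a ratio of 1.51. The log2 fold change was 0.47 ± 0.13 (SE), with an unadjusted limma p of 0.0035 and an adjusted p of 0.57. The intronic region of Med27 had a mean of 19 reads per library and overlapping groups, 1.44 ± 0.39 RPKM with butyrate and 1.09 ± 0.33 RPKM with vehicle.

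Med17, the architectural subunit of the head, had the highest level of the module. It had 3.65, 3.14 and 3.78 RPKM in butyrate libraries, against 3.19, 3.79 and 3.52 RPKM in vehicle libraries, in chromosome 9, 15279090 to 15281204. The groups overlapped, and the 95% interval of the log2 fold change was -0.22 to 0.23. Med18, a head subunit that forms a movable jaw with Med20, had 2.12, 1.86 and 3.18 RPKM with butyrate, against 3.04, 2.90 and 3.20 RPKM with vehicle. There 2 butyrate libraries lay below all vehicle libraries and S6 did not (log2 fold change -0.27 ± 0.14, unadjusted limma p 0.071). The other head members, Med6, Med11, Med22, Med28 and Med30, had mean levels of 2.46 to 3.40 RPKM and log2 fold changes of -0.10 to 0.12.

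The middle module was measured at 8 regions, 5 higher and 3 lower, and held a further pair of the separated members. Med4, a subunit of the middle module that links its parts, had 4.19, 4.17 and 3.92 RPKM in butyrate libraries, against 2.92, 3.24 and 2.87 RPKM in vehicle libraries (chromosome 14, 73509755 to 73511173, first intron and start site). The groups were apart by more than the range within either of them. Means were 4.09 ± 0.16 RPKM with butyrate and 3.01 ± 0.20 RPKM with vehicle (SD, n = 3 each), on 106 mean reads. The log2 fold change was 0.35 ± 0.10 (SE), with the smallest unadjusted limma p among members (0.0035) and an adjusted p of 0.57. In the authors' deposited table its log2 fold change was 0.45 with an FDR of 0.194.

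Med9, a small subunit of the middle module, had 4.85, 4.99 and 4.63 RPKM in butyrate libraries, against 4.14, 3.75 and 4.20 RPKM in vehicle libraries. The groups did not overlap (log2 fold change 0.21 ± 0.09, unadjusted limma p 0.034, adjusted p 0.65). The lncRNA gene Med9os of the RefSeq annotation overlaps this region, and the mark cannot be given to either gene. Med10, a core subunit, had the highest level of the module, with 5.97, 6.88 and 5.76 RPKM with butyrate and 5.86, 5.45 and 6.20 RPKM with vehicle. Its groups overlapped (interval -0.11 to 0.26).

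Med14, the backbone that joins head, middle and tail, had 2.81, 3.06 and 2.50 RPKM in butyrate libraries, against 2.58, 3.17 and 2.70 RPKM in vehicle libraries, and an interval of -0.26 to 0.24. Med1, through which nuclear receptors contact Mediator, had 3.28, 3.67 and 3.17 RPKM with butyrate, against 3.39, 3.86 and 3.98 RPKM with vehicle. Both genes had overlapping groups, and Med1 had a log2 fold change of -0.12 ± 0.10. Med7, Med21 and Med26, the last of which recruits elongation factors, had log2 fold changes of -0.04 to 0.10.

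The tail was measured at 6 regions of 5 genes, with 5 regions tested, 4 higher and 1 lower. Med15, a target of activators such as the SREBP factors, had its highest level, with 5.76, 5.31 and 5.85 RPKM in butyrate libraries and 4.99, 5.30 and 5.46 RPKM in vehicle libraries. Med16 had the smallest p of the module, with 3.11, 3.03 and 4.0 RPKM with butyrate and 3.56, 2.47 and 2.13 RPKM with vehicle (log2 fold change 0.25 ± 0.15, unadjusted limma p 0.11). In both the groups overlapped. The Med16 value was 0.40 without S1, 0.13 without S3 and 0.15 without S6. Med23 and Med25, which also receive activators, had 0.17 ± 0.12 and 0.10 ± 0.18 on the log2 scale. Med24 had -0.25 ± 0.16 on a mean of 18.7 reads. Its upstream region had 0.988, 1.07 and 0.243 RPKM with butyrate, against 1.11, 0.537 and 1.72 RPKM with vehicle.

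The kinase module was measured at Med12, Med13 and Med13l. Med13, which ties the module to the core of Mediator, had a higher level than 99.2% of the regions and overlapping groups, with 8.30, 7.48 and 8.18 RPKM in butyrate libraries and 8.47, 7.05 and 8.35 RPKM in vehicle libraries. With 396 mean reads its interval was among the narrowest, -0.17 to 0.18 on the log2 scale. Its paralogue Med13l had 2.88, 2.96 and 3.56 RPKM with butyrate, against 4.14, 3.53 and 4.02 RPKM with vehicle (chromosome 5, 118559715 to 118562300). The groups touched, S6 with butyrate being just above S2 with vehicle. The log2 fold change of Med13l was -0.25 ± 0.11 (SE), with an unadjusted limma p of 0.037 and an adjusted p of 0.66. Whether Med13l differs from Med13 in its response was not tested. Med12, which activates the kinase, had 3.42, 3.02 and 4.35 RPKM with butyrate and 3.57, 2.80 and 3.77 RPKM with vehicle, in a region of 500 bp on chromosome X.

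The remaining parts of the kinase module, whose symbols the rule does not take, were measured as well. Ccnc, which encodes cyclin C, had 4.10, 4.28 and 3.83 RPKM in butyrate libraries, against 3.29, 3.69 and 2.99 RPKM in vehicle libraries. These groups did not overlap (log2 fold change 0.23 ± 0.10, unadjusted limma p 0.039, adjusted p 0.66). The kinase gene Cdk8 had 0.16 ± 0.12 and its paralogue Cdk19 had -0.02 ± 0.11 on the log2 scale.

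The subunits particular to RNA polymerase II were measured at 7 regions, 4 higher and 3 lower. Polr2a, the largest subunit with the repeated C-terminal domain, had 2.07, 2.17 and 2.30 RPKM in butyrate libraries, against 1.66, 2.06 and 2.27 RPKM in vehicle libraries. Its region (chromosome 11, 69755212 to 69759217) was the widest member at 4005 bp and below the median member in RPKM. The groups overlapped, and the interval was -0.20 to 0.38. Polr2b, which forms the active site with Polr2a, had 2.79, 2.06 and 2.40 RPKM with butyrate, against 2.64, 2.37 and 2.23 RPKM with vehicle (interval -0.27 to 0.27). At both large subunits the spread within a group was larger than the difference between the groups.

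Polr2g, a subunit of the stalk, was the polymerase member with the smallest p. It had 2.05, 2.02 and 1.52 RPKM in butyrate libraries, against 2.21, 2.49 and 3.10 RPKM in vehicle libraries (chromosome 19, 8797581 to 8798547). The groups did not overlap, with a gap between S4 with butyrate and S1 with vehicle that was smaller than the range within either group. Means were 1.86 ± 0.30 RPKM with butyrate and 2.60 ± 0.46 RPKM with vehicle (SD, n = 3 each), on 45.3 mean reads. The log2 fold change was -0.33 ± 0.14 (SE), with an unadjusted limma p of 0.036 and an adjusted p of 0.65. Its partner in the stalk, Polr2d, had 0.11 ± 0.14.

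Polr2m had the highest H3K9ac of all members, above 99.8% of the regions. It encodes Gdown1, a protein bound to RNA polymerase II that makes the enzyme depend on Mediator. Its region (chromosome 9, 71484781 to 71486351) had 10.1, 10.1 and 8.80 RPKM in butyrate libraries, against 8.79, 9.53 and 7.95 RPKM in vehicle libraries. The groups overlapped, with a log2 fold change of 0.13 ± 0.08 and an interval of -0.04 to 0.30. Polr2c and Polr2j, which pair as the alpha-like subunits, had 0.07 ± 0.11 and -0.04 ± 0.10.

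The subunits shared by all 3 polymerases were measured at all 5 genes, 3 higher and 2 lower. Polr2l had the highest level of these, with 4.36, 4.30 and 4.25 RPKM in butyrate libraries and 3.92, 4.57 and 4.52 RPKM in vehicle libraries, in a region that also covers the start of Tspan4 on the other strand. Polr2e had 2.63, 1.26 and 2.50 RPKM with butyrate, against 2.70, 2.63 and 2.82 RPKM with vehicle. The Polr2e groups were apart only in the third digit, between S4 with butyrate and S2 with vehicle, and S5 was far below the rest (log2 fold change -0.28 ± 0.17, unadjusted limma p 0.12, on 27.7 mean reads). Without S5 the log2 fold change of Polr2e was -0.06. Polr2f, Polr2h and Polr2k had levels of 1.69 to 2.27 RPKM and log2 fold changes of 0.02 to 0.16.

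RNA polymerase III was measured at 6 regions, 2 higher and 4 lower, none with an unadjusted limma p under 0.05. The median log2 fold change of the 6 was -0.19, the lowest of the groups of members. The 6 values ranged from -0.33 to 0.19, with an SD of 0.22. The regions over the starts of Polr3c and Polr3d, which are named for other genes, had -0.00011 and 0.12. Polr3f, of the subcomplex that serves in initiation, had 3.35, 2.88 and 2.83 RPKM in butyrate libraries, against 3.58, 3.25 and 4.31 RPKM in vehicle libraries (log2 fold change -0.23 ± 0.11, unadjusted limma p 0.068). Its groups overlapped. Polr3gl, of the same subcomplex, had -0.33 ± 0.17 and Polr3e had -0.21 ± 0.12, with overlapping groups in both. Leaving out single libraries gave -0.53 to -0.16 at Polr3gl, with S4 and S6 of the butyrate group far apart, and -0.30 to -0.14 at Polr3f.

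The large subunits of RNA polymerase III had differences of opposite sign, and neither passed. Polr3a had 3.08, 2.67 and 2.51 RPKM in butyrate libraries, against 2.57, 2.02 and 2.41 RPKM in vehicle libraries, with an interval of -0.09 to 0.43. Polr3b had 1.64, 1.38 and 1.58 RPKM with butyrate, against 2.05, 2.25 and 1.28 RPKM with vehicle, with an interval of -0.52 to 0.20. The groups overlapped in both. Polr3k, the subunit needed for RNA cleavage and termination, had 0.19 ± 0.14.

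**Figure D4:**
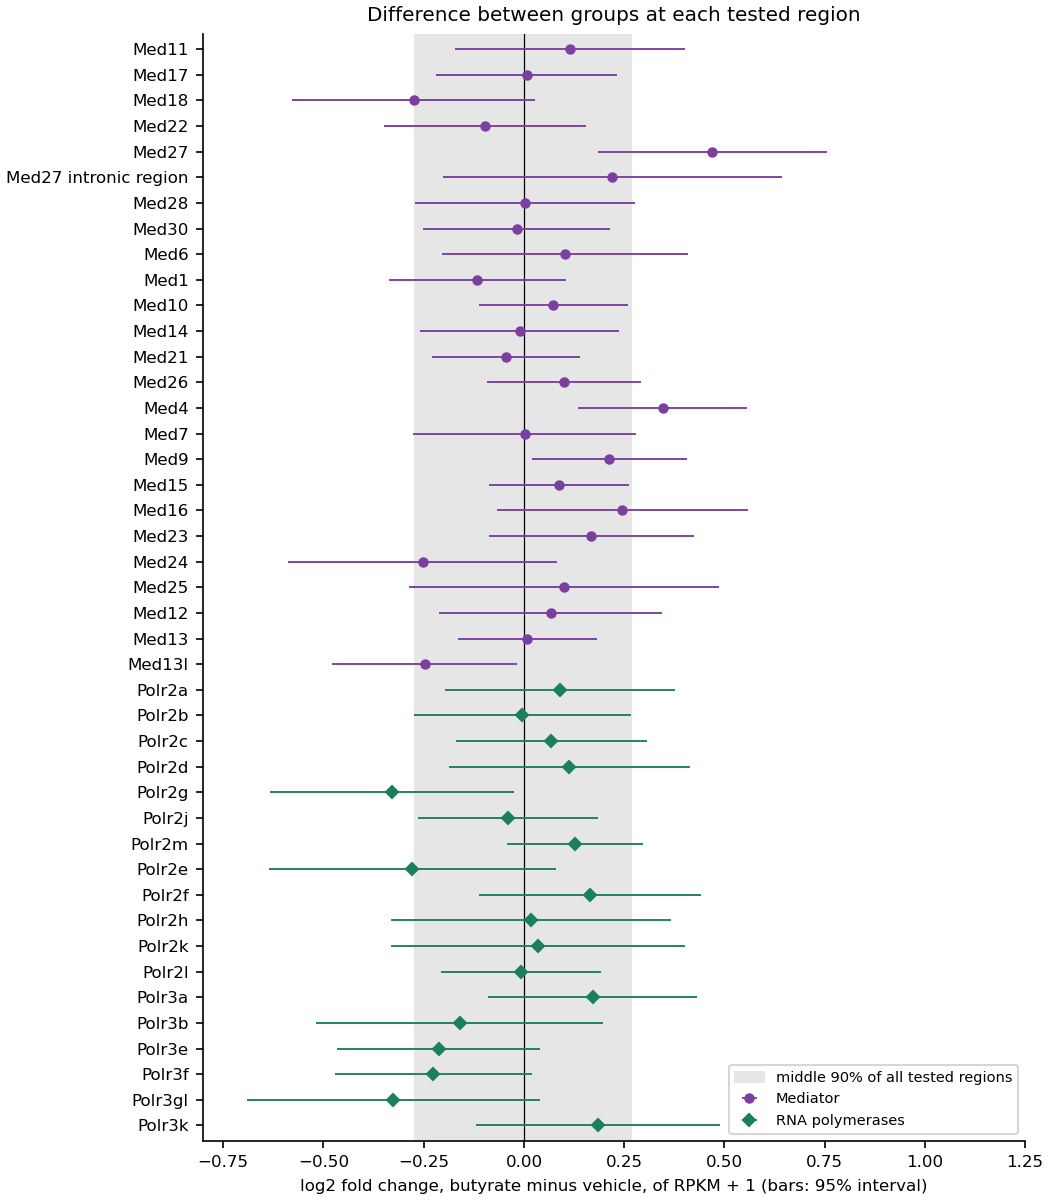
Log2 fold change of RPKM + 1 (butyrate minus vehicle) with its 95% interval at each of the 43 tested members, from limma; the grey band holds the middle 90% of all tested regions. The intervals of Med27, Med4 and Med9 lie above 0 and those of Med13l and Polr2g below it, before adjustment over all regions.

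Many listed subunits had no region of their own name. Of 60 symbols listed for Mediator and the polymerases, 42 had one. A further 7 had their start site, by GENCODE M21, inside a region that the table names for another gene: Med8, Med20, Polr1a, Polr1c, Polr1d, Polr3c and Polr3d. For Med12l, Med19, Med29, Med31, Polr1b, Polr1e, Polr2i and Polr3g there was no region in the table as used here. The symbols Polr1f, Polr1g and Polr1h are not in that annotation, which carries these genes as Twistnb, Cd3eap and Znrd1. Polr1a, Polr1c and Polr1d are thus in the table under another gene's name, since each region carries 1 nearest gene. These regions were looked up after the members' values were seen.

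RNA polymerase I could be read only in part, because the regions over the starts of Polr1a, Polr1c and Polr1d also hold another gene's start. The start of Polr1a, its largest subunit, shares a region with Ptcd3 (chromosome 6, 71907965 to 71909733), which had 2.14, 1.89 and 2.76 RPKM in butyrate libraries and 1.84, 2.82 and 1.61 RPKM in vehicle libraries. The start of Polr1c, shared with polymerase III, lies in the Yipf3 region (chromosome 17, 46247018 to 46249238), with 5.16, 5.01 and 4.44 RPKM with butyrate and 4.31, 4.67 and 4.55 RPKM with vehicle. The start of Polr1d, its partner, lies in the Lnx2 region (chromosome 5, 147074820 to 147078552), with 3.42, 2.44 and 2.98 RPKM with butyrate and 3.08, 3.02 and 3.47 RPKM with vehicle. The groups overlapped at all 3, with log2 fold changes of 0.09 ± 0.16, 0.09 ± 0.09 and -0.09 ± 0.12.

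At the Znrd1as region, which holds the start of Znrd1, the butyrate libraries had 3.11, 3.14 and 3.33 RPKM, against 2.87, 3.00 and 2.46 RPKM in the vehicle libraries. The groups did not overlap, and limma gave 0.15 ± 0.11 with an unadjusted p of 0.18. Twistnb has a region of its own, with 4.04 ± 0.63 RPKM with butyrate and 3.98 ± 0.18 RPKM with vehicle (SD, n = 3 each). The regions over the starts of Med8, Med20, Polr3c and Polr3d had log2 fold changes of -0.04 to 0.12 and overlapping groups. A region shared by 2 starts does not tell which gene its acetylation belongs to.

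**Figure D5:**
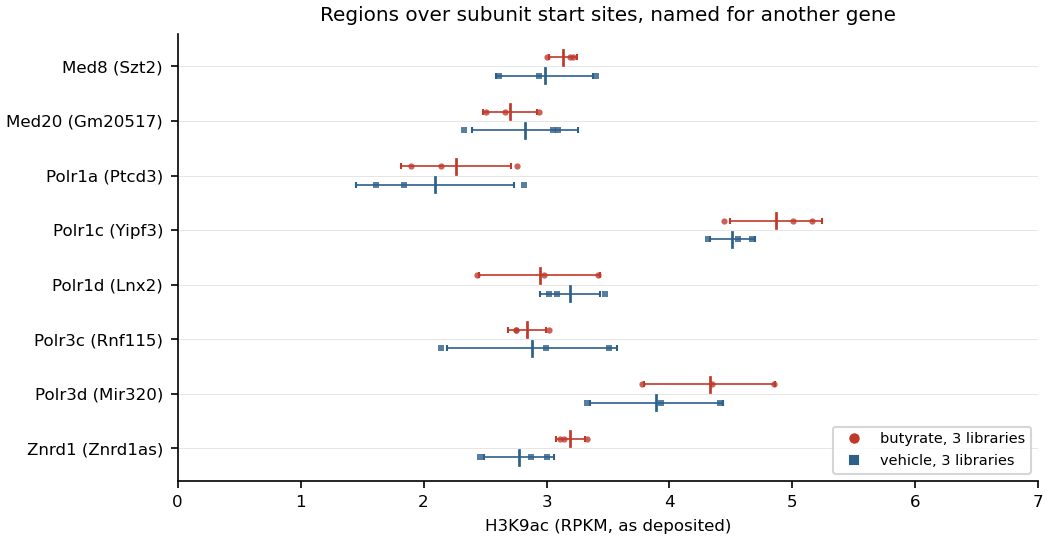
H3K9ac in RPKM, by library, at the 8 regions that hold a subunit's start site under the name of another gene, given in brackets; points are libraries, vertical ticks means and bars SD (n = 3 per group). The groups overlap at all but the Znrd1 region.

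Start sites of members also lay close to coding genes on the other strand. By the same annotation, 5 of the 43 members near a start had such a start up to 1000 bp upstream of their own or just past it (11.6%, against 10.5% of the other regions near a start). Starts on the other strand further inside the gene were not counted. They were Med22 with the ribosomal protein gene Rpl7a, Polr2b with Noa1, Polr2f with 1700088E04Rik, Polr2l with Tspan4 and Polr3f with Dzank1.

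The factors that work with these enzymes were read in the same way, from lists of general, elongation, polymerase I and polymerase III factors and of subunits under other symbols. Of 93 listed partner genes 78 had a region within 5 kb of their start, 39 higher and 39 lower with butyrate. Their median log2 fold change was 0.00. None passed limma at an adjusted p of 0.05 or was called by voom, and 5 had an unadjusted limma p under 0.05 (6.41%, against 7.27% of all tested regions). Among the general factors of polymerase II 12 of 28 were higher and 16 lower. Taf10, a TFIID and SAGA subunit, had the smallest p there, with 5.37, 5.39 and 5.47 RPKM in butyrate libraries, against 8.17, 6.29 and 5.96 RPKM in vehicle libraries (log2 fold change -0.27 ± 0.10, unadjusted limma p 0.016). Its groups did not overlap, with S1 of the vehicle group far above the rest, and leaving out single libraries gave log2 fold changes between -0.35 and -0.15. The Taf10 region was centred 259 bp after the Taf10 start but is annotated as a transcript end. Which gene its mark belongs to was not tested.

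Among pausing and elongation factors 18 of 26 were higher and 8 lower. Supt4a, a subunit of the pausing factor DSIF, had 2.95, 2.99 and 3.44 RPKM in butyrate libraries, against 2.36, 2.40 and 1.96 RPKM in vehicle libraries. The groups did not overlap, and limma gave a log2 fold change of 0.35 ± 0.12, an unadjusted p of 0.0093 and an adjusted p of 0.57. This was the smallest limma p of the list, on 47.7 mean reads. By voom Ell, on 233 mean reads and also with separated groups, had a smaller p (0.00083, adjusted 0.16) than Supt4a (0.044). In this list 4 genes had all butyrate libraries higher and 2 had all lower (23.1%, against 13.0% of all tested regions). Of the factors of polymerase I 2 of 6 were higher and 4 lower, with Taf1c, of the promoter factor SL1, at 2.40 ± 0.51 RPKM with butyrate and 3.31 ± 0.25 RPKM with vehicle (log2 fold change -0.35 ± 0.13, unadjusted limma p 0.016). Of the factors of polymerase III 4 of 12 were higher and 8 lower, with Gtf3c5, of TFIIIC, at 0.21 ± 0.12 (unadjusted limma p 0.10).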

How the data were processed

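H3K9ac was measured by chromatin immunoprecipitation and sequencing in 3 butyrate and 3 vehicle libraries. Per the submitters' processing notes, the build was mm10 and STAR, Picard, HOMER and edgeR were used by the authors, with no version or role; how regions were called and merged is not given in the sources used here. The deposited table gives RPKM per library, which was used, together with group averages in CPM and RPKM that the authors computed and that were not used. It also gives the authors' deposited log2 fold change, p-value and FDR. Column names give the group of a library (S4 to S6 butyrate, S1 to S3 vehicle) and no replicate number.

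Regions with a mean of at least 1 RPKM were tested with limma 3.58.1 in R 4.3.3, on values of log2(RPKM + 1), butyrate minus vehicle, with trend and robust empirical Bayes and Benjamini-Hochberg adjustment over all 10529 tested regions. RPKM times region length gave whole reads for 100% of values (tolerance 0.01 reads), and these reads were tested with voom as an alternative. The fits were tested on simulated data. Alternatives covered pseudocount, filter, scaling, empirical Bayes settings and leaving out each library. The values in every library are given for the smallest p and the highest level of each group of subunits, each unadjusted limma p under 0.05, and the catalytic and scaffold subunits. A region per partner gene was the one with most reads within 5 kb of its start. Motif windows came from RefSeq (GRCm38.p6) and start sites from GENCODE M21, of the same build as mm10. A further subunit gene is not reported here. The members and lists were chosen with earlier results of these data known. Coordinates are as the table gives them.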

Additional observations from a re-analysis of the deposited data

How the results depend on the processing

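No member was called under any alternative tried, including an adjusted p of 0.1, nor was any partner gene. Over the whole table, voom on recovered reads called 16 regions, voom on regions of at least 25 mean reads called 9 and limma on log2(CPM + 0.5) called 7, against 0 in limma on log2(RPKM + 1); the cause was not tested. The smallest adjusted p of a member ran from 0.29 with voom to 0.69 without library S5. Leaving out a library in turn, 4 to 8 members had an unadjusted p under 0.05, with 8 without S6, where 6.88% of all tested regions did, and with 6.47% to 7.88% of them over the 6 fits. The median log2 fold change of the members ran from -0.0015 without S6 to 0.0443 without S1. Groups that did not overlap were found at 12 of 43 members without S1, 12 of 44 without S2 and 10 of 43 without S3. They were found at 7 of 43 without S4, 10 of 43 without S5 and 17 of 44 without S6. Over all tested regions 22.8% to 24.4% did so, with 24.4% without S4 and 23.9% without S6. Fewer libraries separate more easily, and why the count of members varied between these fits was not tested.

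For 21 of the members given by library, not including Med18 and the region upstream of Med24, 356 values were computed under alternatives, of which 337 kept their direction and 19 did not. By leaving out a library, log2 fold changes ran from -0.0485 to 0.16 at Med12, -0.0673 to 0.0499 at Med13, -0.062 to 0.0544 at Med14, -0.0441 to 0.0686 at Med17, -0.0817 to 0.0734 at Polr2b and -0.0639 to 0.0251 at Polr2l. With cyclic loess Med13 had -0.022 and Polr2b 0.0015, and with voom Polr2l had 0.0058 on all regions and 0.0061 on those of at least 25 reads. With a library left out, Med4 had 0.32 to 0.39 and Med27 had 0.37 to 0.62, with unadjusted limma p up to 0.014 and 0.018, and by voom they had 0.45 and 0.57. In the same fits with a library left out, the unadjusted limma p ran up to 0.11 at Med9, 0.12 at Med13l and 0.17 at Polr2g. The level of members was 0.977 times that of the other promoter regions and 0.984 times that of all other regions. No paired analysis was possible because the columns carry none of the replicate numbers of the labels. Counting error is large where reads are few, as at the regions of Med24 (18.7 and 14.7 mean reads).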
